A study of Mus musculus with 12 samples.

Results

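A set of 10 transcription factors that act in the choice between the granulocyte, monocyte, erythroid and mast cell lineages was followed through the RNA-seq data: Spi1, Gfi1, Gfi1b, Irf8, Klf4, Klf2, Zeb2, Id2, Gata1 and Gata2. They were taken by name from the deposited table, in which these 10 are among 23309 genes, and Spi1 stands there under its older symbol Sfpi1. All 10 had at least 1 FPKM (fragments scaled by transcript length and library size) in at least 2 of the 12 libraries, as did 11516 genes in all, which were the genes tested. The cells were mouse bone marrow progenitors, selected for c-Kit and immortalized with a retrovirus that encodes HoxB8 joined to the estrogen receptor. The ER-HoxB8 protein keeps them immature while estradiol (E2) is in the medium, and without E2 they mature in IL-3. Wild-type (WT) and HMGN1-OE progenitors were compared, the latter from mice with a human HMGN1 transgene. RNA was taken at 0 h, with E2 present, and at 36 h and 96 h after E2 was removed, with 2 libraries in each of the 6 groups. Both genotypes thus carried the same ER-HoxB8 fusion and the same IL-3 culture. The labels name the cells only as myeloid. The study calls the libraries of a group biological duplicates, but whether these were separate animals, progenitor lines or cultures is not given in the sources used here, and the p-values measure only the spread between them. The human transgene has no row of its own in the table, so it could not serve as a check of the genotype labels.

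Lineage factors work as a network in which each one favours a fate and represses the program of another. Spi1, also known as PU.1, is needed for all myeloid cells, Irf8 and Klf4 are known for monocytes, and Gfi1 is the repressor known for neutrophils. Gfi1b, its close relative, acts in erythroid cells and megakaryocytes, where Gata1 is the central factor, and Gata2 is known for stem cells, early progenitors and mast cells.

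The values are on a scale set by synthetic spike-in RNAs added to RNA from equal numbers of cells, so they follow the RNA of a gene per cell. On this scale the median gene differed between the groups. The median difference of the 11516 genes between HMGN1-OE and WT, on the log2(FPKM + 1) scale used for every log2 difference below, was -0.12 at 0 h, -0.54 at 36 h and 0.36 at 96 h. It was 0.26 from 0 h to 36 h and -1.77 from 36 h to 96 h. With 1 library left out, the median difference between genotypes ranged from -0.55 (without WT library a) to 0.30 (without WT library b) at 0 h, from -0.67 to -0.40 at 36 h, and from -0.049 (without WT library b) to 0.79 (without WT library a) at 96 h, so that its direction at 0 h and 96 h rested on single libraries. The median from 0 h to 36 h ranged from 0.056 to 0.48, and that from 36 h to 96 h from -1.98 to -1.55. Each log2 difference of a factor between groups over all 12 libraries is therefore also given relative to this median. In bulk samples, fewer cells of a type and less RNA per cell cannot be told apart.

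Libraries of a group were not always alike. The WT libraries at 36 h were the least alike pair (Pearson r = 0.951 across genes, which are not independent replicates), where the pairs of the other 5 groups were at 0.965 to 0.980. Library b was closest to the mean of the WT libraries at 0 h (r = 0.981) and library a to the HMGN1-OE mean at 36 h (r = 0.972). Of the 12 libraries, 6 were closer to the mean of another group than to their own partner, although a mean of 2 libraries is less noisy than 1 library. Flt3, a receptor of early progenitors, was at 67.0 FPKM in WT library b at 36 h, against 4.10 in library a, 7.53 and 9.31 in HMGN1-OE at the same time, and 47.5 to 82.2 in the 4 libraries at 0 h. Cpa3, the mast cell carboxypeptidase, was at 2013 FPKM in WT library a at 36 h, against 554 in library b and 564 and 648 in HMGN1-OE. The log2 differences of the factors that rest on 36 h are therefore also given without WT library a or b of that time. The part of these differences in the results was not tested.

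**Figure D1:**
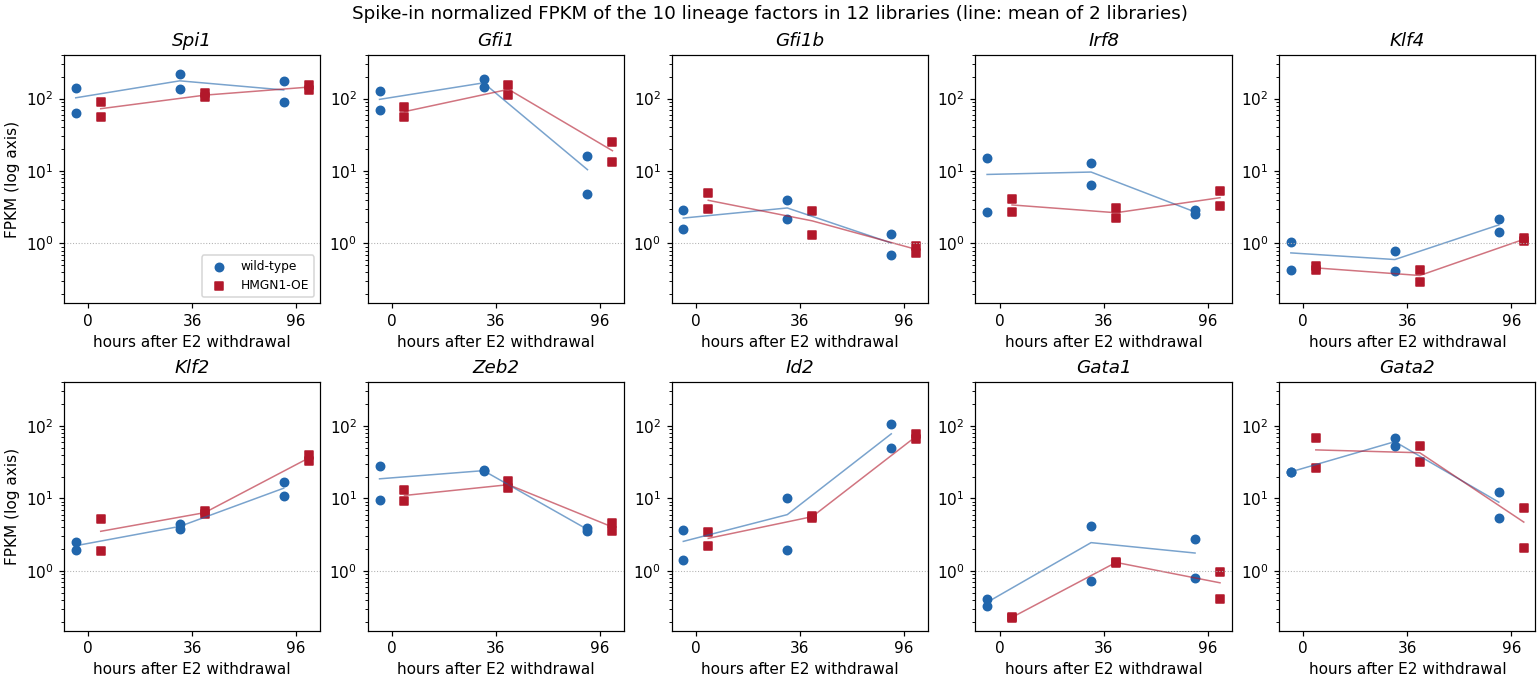
FPKM of the 10 factors (vertical axis, log scale) by hours after E2 withdrawal, with 1 point per library, WT in blue circles and HMGN1-OE in red squares, lines through the mean of 2 libraries, and a dotted line at 1 FPKM. Id2 and Klf2 lie highest at 96 h, Gfi1, Gata2 and Zeb2 lie lowest at 96 h, and Spi1 stays between 56.4 and 216.7 FPKM.

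By the mean over the 12 libraries, FPKM was in the order Spi1 (123), Gfi1 (81.9), Gata2 (31.2), Id2 (27.8), Zeb2 (12.8), Klf2 (11.0), Irf8 (5.29), Gfi1b (2.2), Gata1 (1.14) and Klf4 (0.852). The ranges over libraries of every 2 neighbours in this order overlapped. Spi1, Gfi1, Gata2, Id2, Zeb2, Klf2 and Irf8 reached 1 FPKM in all 12 libraries, Gfi1b in 9, Klf4 in 5 and Gata1 in 4. The largest ratio of the highest to the lowest library was that of Id2, at 74.2, and the smallest was that of Spi1, at 3.84.

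The bases before the start of 3 of these genes are shown because Irf8 was the only factor called between genotypes and Gata1 the only one called between 0 h and 36 h, and because Gata2, the relative of Gata1, followed another course. They are the 250 bases before a start annotated by RefSeq (build GRCm38.p6), outside annotated exons, read 5′ to 3′ on the gene's strand. The Gata1 stretch lies inside the longer span annotated for Gata1 in GENCODE vM21, and the Irf8 stretch lies inside the annotated gene Gm20388. Capitals mark the letters of a searched motif.
Irf8, chr8:120736108-120736357, plus strand: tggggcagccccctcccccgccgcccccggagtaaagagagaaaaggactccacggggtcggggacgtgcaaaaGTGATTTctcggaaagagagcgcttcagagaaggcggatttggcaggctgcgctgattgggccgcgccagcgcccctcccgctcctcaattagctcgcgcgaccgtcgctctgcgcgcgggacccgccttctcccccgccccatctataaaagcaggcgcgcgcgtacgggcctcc
Gata1, chrX:7967911-7968160, minus strand: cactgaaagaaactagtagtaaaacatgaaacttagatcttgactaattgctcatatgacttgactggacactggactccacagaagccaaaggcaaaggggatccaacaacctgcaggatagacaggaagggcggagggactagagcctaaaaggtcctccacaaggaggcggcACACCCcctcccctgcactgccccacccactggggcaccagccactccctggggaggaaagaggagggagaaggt
Gata2, chr6:88193641-88193890, plus strand: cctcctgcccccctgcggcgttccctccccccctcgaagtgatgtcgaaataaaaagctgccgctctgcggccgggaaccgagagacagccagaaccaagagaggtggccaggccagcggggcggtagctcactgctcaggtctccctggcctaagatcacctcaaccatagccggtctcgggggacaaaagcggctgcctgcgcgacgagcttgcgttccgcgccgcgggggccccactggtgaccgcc

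RefSeq promoter windows, from 250 bases before to 50 bases after a start, were given for 9 of the 10 factors, 15 windows in all. A set of 4 short motifs was searched on both strands, 1 for each of 4 families that hold a factor of this set. They were GAGGAAG for Spi1, AGATAA for the Gata factors, AAATCAC for Gfi1 and Gfi1b, and ACACCC for the Klf factors, and none is contained in another. Of all 32851 windows of this length, 13.6% held the Spi1 letters, 11.2% the Gata letters, 3.2% the Gfi1 letters and 16% the Klf letters. The Gfi1 letters were found once among the 15 windows, 176 bases before a start of Irf8, as the reverse complement printed above. The Klf letters were found once, 75 bases before a start of Gata1. The Spi1 letters were found in 3 windows of Zeb2, of which 2 overlap and share a match, so that 2 separate matches were found, and the Gata letters were found in none. These matches describe the letters and are neither sites of binding nor causes. The 2 stretches around the matches in Zeb2 are printed because that gene alone had more than 1, although it also had the most windows, 4 of the 15. The 3 windows with a match lie inside the annotated span of Zeb2. Of their 250 bases before the start, 250, 250 and 191 are in annotated exons of any gene. The 2 that overlap also lie inside Zeb2os, and the Zeb2 window outside that span holds no match.
Zeb2, chr2:45113280-45113305, minus strand: gggagggagaGAGGAAGggagggagg
Zeb2, chr2:45110472-45110498, minus strand: ggacttttctGAGGAAGaggtccgcct

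HMGN1-OE and WT progenitors were first compared with E2 present, at 0 h, before any maturation was induced. None of the 10 factors was called at 0 h by limma at an adjusted p under 0.05 (0 at an unadjusted p under 0.05), where 1.36% of the 11516 genes were called (3.97% at the unadjusted p). Irf8, the interferon regulatory factor that directs monocyte fate (chr8:120736358-120756694 in GENCODE vM21, GRCm38), was at 2.72 and 15.2 FPKM in WT and at 4.08 and 2.73 in HMGN1-OE. Library b of WT therefore stood alone for Irf8, and the genotypes overlapped. The log2 difference was -0.84 (limma adjusted p = 1.0), 0.72 below the median of all genes. It depended on which WT library was kept, at -1.90 (limma adjusted p = 0.00465) without library a and 0.23 (adjusted p = 0.901), in the other direction, without library b. Library b also had 35.7 FPKM of Ccr2, the chemokine receptor of monocytes, against 3.60 in library a and 11.97 and 6.61 in HMGN1-OE. Ccr2 was picked after its value was seen. The 10 monocyte markers together summed to 98.9 and 276 FPKM in WT libraries a and b and to 351 and 200 in HMGN1-OE, so library b did not stand alone in the sum.

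Gata2 (chr6:88193891-88207032) was at 23.3 FPKM in both WT libraries at 0 h and at 67.6 and 25.9 in HMGN1-OE. Both HMGN1-OE libraries thus lay above WT, 1 of them only slightly. The log2 difference was 0.82 ± 0.52 (limma's SE, n = 2 against 2), 0.95 above the median of all genes, with a limma adjusted p of 1.0. Without HMGN1-OE library a, the higher one, it was 0.15, and without library b 1.5. Gfi1b (chr2:28609450-28621982) was at 2.91 and 1.58 FPKM in WT and at 4.91 and 2.97 in HMGN1-OE, a log2 difference of 0.61 ± 0.37, 0.73 above the median of all genes, and 0.31 (without WT library b) to 0.91 (without WT library a) with 1 library left out. Gata1 was at 0.406 and 0.331 FPKM in WT and at 0.233 and 0.224 in HMGN1-OE, all under 1 FPKM. At 0 h, HMGN1-OE thus lay above WT without overlap for 2 of 10 factors, as for 3.26% of the genes tested, and below WT for 1, as for 4.67%.

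At 36 h, the comparison addresses cells that had begun to mature. Irf8 was at 12.9 and 6.47 FPKM in WT and at 3.08 and 2.24 in HMGN1-OE. Both HMGN1-OE libraries lay below both WT libraries. The log2 difference was -1.49 ± 0.43 (n = 2 against 2), 0.95 below the median of all genes, and Irf8 was the only one of the 10 factors called (limma adjusted p = 0.0412). Of all genes tested, 1.26% were called, 0.842% lower in HMGN1-OE. The call was lost under each of the 8 other settings, with adjusted p from 0.0713 to 1.0, and under 7 of the 12 fits that left out 1 library. The summed FPKM of the 10 monocyte markers at 36 h was 197 and 181 in WT and 123 and 150 in HMGN1-OE, and none of the 8 tested was called there. Without WT library a at 36 h the adjusted p was 0.538 and the log2 difference -1.04, and without library b the call was kept (-1.93, adjusted p = 0.0156). limma's spread came from the trend over all genes, and for Irf8 that trend (SD 0.43) was smaller than its own spread between libraries of a group (SD 0.70). Reads of Irf8 share their strand and position with the annotated gene Gm20388, and the counting does not tell them apart.

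No other factor passed the test at 36 h. Spi1 (chr2:91082390-91115756) was at 216.7 and 134.4 FPKM in WT and at 117.9 and 104.9 in HMGN1-OE. Zeb2, a zinc finger repressor that acts in dendritic cell and monocyte development (chr2:44983632-45117395), was at 24.7 and 23.6 FPKM in WT and at 17.2 and 13.8 in HMGN1-OE. Gata2 was at 68.4 and 53.1 FPKM in WT and at 32.3 and 53.1 in HMGN1-OE, where the higher HMGN1-OE library lay just under the lower WT library. Spi1, Irf8, Zeb2 and Gata2 thus had HMGN1-OE below WT without overlap, 4 of 10, where 84.4% of the genes tested did. The log2 differences of Spi1, Zeb2 and Gata2 lay within 0.084 of the median of all genes. Without WT library a or b at 36 h, respectively, the difference was -0.27 or -0.96 for Spi1, -0.59 or -0.65 for Zeb2 and -0.35 or -0.71 for Gata2.

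Klf2 went the other way at 36 h. This factor, known for quiescence in T cells and monocytes (chr8:72319033-72321656), was at 3.82 and 4.40 FPKM in WT and at 6.06 and 6.67 in HMGN1-OE. It was the only one of the 10 factors with HMGN1-OE above WT without overlap, as were 1.18% of the genes tested. The log2 difference was 0.53 (limma adjusted p = 0.496), 1.06 above the median of all genes, and 0.45 or 0.61 without WT library a or b. Klf4, a related factor of monocyte maturation (chr4:55527143-55532466), was at 0.415 and 0.787 FPKM in WT and at 0.434 and 0.290 in HMGN1-OE, all under 1 FPKM.

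At 96 h none of the 10 factors was called (limma), against 0.669% of genes tested, and 1 had an unadjusted p under 0.05, as did 2.73% of genes. That factor was Klf2, at 17.01 and 10.7 FPKM in WT and at 32.7 and 39.4 in HMGN1-OE. Both HMGN1-OE libraries lay far above both WT libraries. The log2 difference was 1.35 ± 0.46, 0.99 above the median of all genes, with an unadjusted p of 0.00345 and an adjusted p of 0.362. Over the alternatives the adjusted p ranged from 0.0730 to 1.0. Irf8 also lay higher in HMGN1-OE without overlap at 96 h, with 2.86 and 2.58 FPKM in WT and 3.33 and 5.24 in HMGN1-OE. These 2 of 10 stand beside 10.2% of all genes tested. Klf4 was at 1.44 and 2.17 FPKM in WT and at 1.10 and 1.19 in HMGN1-OE, lower without overlap, as were 2.97% of genes.

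Gfi1, the neutrophil repressor (chr5:107716657-107726036), was at 16.0 and 4.84 FPKM in WT at 96 h and at 13.3 and 24.8 in HMGN1-OE. The genotypes overlapped, and the log2 difference was 0.95 ± 0.55 (limma adjusted p = 0.859), 0.59 above the median of all genes. It ranged from 0.17 (without WT library b) to 1.72 (without WT library a) with 1 library left out. Gata2 was at 12.4 and 5.35 FPKM in WT and at 2.08 and 7.36 in HMGN1-OE, with a log2 difference of -0.86 ± 0.52, 1.22 below that median, and -0.14 (without HMGN1-OE library a) to -1.58 (without HMGN1-OE library b) with 1 library left out. Gata1 was at 2.74 and 0.793 FPKM in WT and at 0.410 and 0.961 in HMGN1-OE, with a log2 difference of -0.64 ± 0.33, 0.995 below it, and -0.11 (without WT library a) to -1.17 (without WT library b). Eosinophil granule genes, part of a lineage in which Gata1 acts, were called at 96 h, 2 of 3 tested markers, both lower in HMGN1-OE. Prg2, major basic protein, was at 1970 and 933 FPKM in WT and at 186 and 472 in HMGN1-OE. Epx, eosinophil peroxidase, was at 153 and 49.1 FPKM in WT and at 14.1 and 25.3 in HMGN1-OE. Their part in the Gata1 and Gata2 levels was not tested.

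**Figure D2:**
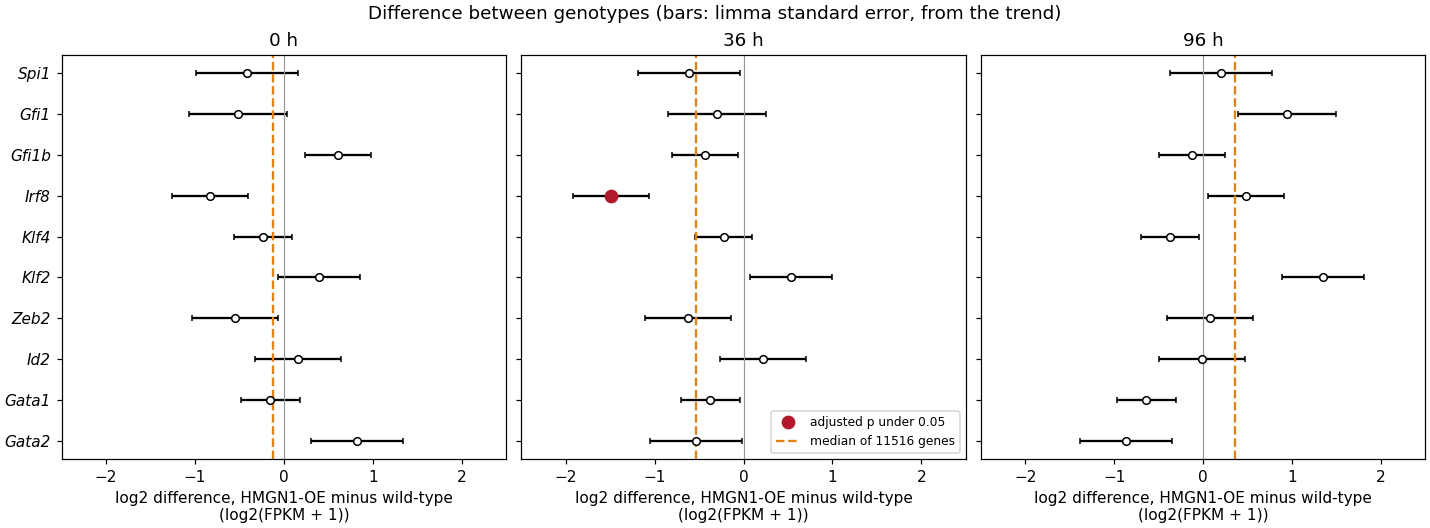
Log2 difference of HMGN1-OE minus WT on the log2(FPKM + 1) scale (horizontal axis) for each factor at 0 h, 36 h and 96 h, with limma's standard error as the bar and the median of the 11516 genes tested as a dashed line. Irf8 at 36 h (-1.49), filled red, is the only difference with an adjusted p under 0.05, and Klf2 at 96 h (1.35) has the largest positive difference.

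Averaged over the 3 times, none of the 10 factors was called between genotypes (limma), where 1.95% of genes were, and 3 had an unadjusted p under 0.05, as did 5.12% of genes. The median of all genes was -0.087 (from -0.23 to 0.056 with 1 library left out), so that relative to it Klf2 was 0.84 higher, Irf8 0.53 lower and Gata1 0.30 lower. Klf2 was 0.76 ± 0.27 higher in HMGN1-OE on the log2 scale (adjusted p = 0.163), and after centring every library on its median the difference was 0.86 and the adjusted p 0.0479. It was 0.73 or 0.78 without WT library a or b at 36 h, and 0.57 without HMGN1-OE library a at 0 h, the lowest value with 1 library left out. Irf8 was lower by a log2 difference of -0.61 ± 0.25 (adjusted p = 0.378), and with 1 library left out it ranged from -0.97 (without WT library a at 0 h, called, adjusted p = 0.00378) to -0.26 (without WT library b at 0 h, adjusted p = 1.0). It was -0.46 or -0.76 without WT library a or b at 36 h. Gata1 had a log2 difference of -0.39 ± 0.19 (adjusted p = 0.881), and without WT library b at 36 h it was called (-0.65, adjusted p = 0.0282), while without WT library a at 36 h it was -0.12 (adjusted p = 1.0) and without WT library a at 96 h -0.21 (adjusted p = 1.0).

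Whether the genotype difference itself changed with time was tested as an interaction, and no factor was called (limma) either from 0 h to 36 h, where 0.504% of genes were called and 1 factor, Gfi1b, had an unadjusted p under 0.05 (1.91% of genes), or from 36 h to 96 h, where 0.547% were called and 1 factor, Irf8, had one (4.52% of genes). Irf8 moved from below WT at 36 h to above WT at 96 h, a log2 change of the difference of 1.97 ± 0.61 (limma adjusted p = 0.150). The median of all genes moved the same way by 0.92 (from 0.47 without WT library b at 96 h to 1.36 without library a), which leaves 1.05 for Irf8, and after centring the libraries on their medians the change was 0.99 (adjusted p = 0.677). Without WT library b at 36 h the change was 2.42 (adjusted p = 0.0446), without library a it was 1.52 (adjusted p = 0.365), and without WT library b at 0 h the adjusted p was 0.0484. The change of Gfi1b from 0 h to 36 h was -1.04 (adjusted p = 0.873), 0.63 below the median of all genes, and -1.37 or -0.71 without WT library a or b at 36 h. With 1 library left out it ranged from -1.40 to -0.68, and the median of all genes from -0.84 (without WT library b at 0 h) to 0.018 (without WT library a at 0 h).

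From 0 h to 36 h, averaged over both genotypes, Gata1 was the 1 factor of 10 that was called (limma), where 2.21% of genes were called and 1.23% were called higher. Gata1 (chrX:7959260-7978071) was between 0.224 and 0.406 FPKM in the 4 libraries at 0 h. At 36 h it was at 4.18 and 0.727 FPKM in WT and at 1.29 and 1.33 in HMGN1-OE, so the 4 libraries at 36 h all lay above those at 0 h, as for 1.61% of genes. It rose by 1.02 ± 0.24 on the log2 scale (adjusted p = 0.00129), 0.76 above the median of all genes. Gata1 reached 1 FPKM only in libraries at 36 h and 96 h, so it passed the filter through times at which it was high. The call of its rise is therefore not independent of the filter. Without WT library a at 36 h the log2 difference was 0.62 and the adjusted p 0.361, and without library b it was 1.42 and called. The call was also lost under 4 of the 6 other settings in which Gata1 was tested, namely no filter, centring, quantile normalization and no trend, with adjusted p from 0.209 to 0.869. That library also had the highest mast cell and basophil markers, with a sum over the 11 listed genes of 3014 FPKM against 461 to 1300 in the other 36 h and 0 h libraries. The 9 erythroid genes listed, of a lineage that Gata1 directs, summed to 4.43 to 41.1 FPKM at 0 h, 3.70 to 22.4 at 36 h and 1.40 to 7.75 at 96 h. The 2 of them that passed the filter made up 45.3% to 97.1% of the sum in each library and were not called from 0 h to 36 h, and the others were under 1 FPKM throughout. Of those others, Slc4a1, Car1 and Epor were between 0.10 and 0.23 FPKM in all 12 libraries, near the value of about 0.1 at which genes without signal are listed.

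Of the other factors, Gfi1 had a log2 difference of 0.90 ± 0.39 from 0 h to 36 h (adjusted p = 0.432), Id2 of 0.78 ± 0.34 (adjusted p = 0.462) and Spi1 of 0.74 ± 0.41 (adjusted p = 0.793). These lay 0.64, 0.52 and 0.48 above the median of all genes. Without WT library a or b at 36 h, respectively, the difference was 0.81 or 0.997 for Gfi1, 0.30 or 1.26 for Id2 and 0.57 or 0.92 for Spi1. Gfi1 was between 55.2 and 125.2 FPKM at 0 h and between 111.9 and 185.8 at 36 h. Spi1 was between 56.4 and 141.6 FPKM at 0 h and between 104.9 and 216.7 at 36 h. Both sets of ranges overlapped.

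From 36 h to 96 h most genes moved, and 7 of the 10 factors were called (limma), beside 90.2% of all genes tested. Of these, 3 were called higher, where 4.15% of genes were, and 4 were called lower, where 86.1% of genes were. Id2, an inhibitor that binds E proteins and keeps them from DNA (chr12:25093799-25097140), rose by 3.58 ± 0.34 on the log2 scale (adjusted p = 6.37e-24), 5.35 above the median of all genes. The rise was 4.06 or 3.10 without WT library a or b at 36 h. Id2 was at 10.04 and 1.92 FPKM in WT and at 5.45 and 5.76 in HMGN1-OE at 36 h, and at 106.3 and 49.5 in WT and at 66.8 and 77.3 in HMGN1-OE at 96 h. Every library at 96 h lay above every library at 36 h, and the genotypes overlapped at both times.

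Klf2 rose by 1.92 ± 0.33 and Klf4 by 0.73 ± 0.23 on the same scale (adjusted p = 1.0e-08 and 0.00190), which is 3.68 and 2.5 above the median of all genes. Klf2 rose by 1.88 or 1.96 and Klf4 by 0.65 or 0.81 without WT library a or b at 36 h. Klf4 reached 1 FPKM in 5 libraries, all of those at 96 h among them and none at 36 h, so it passed the filter through 96 h. Its rise, and its place in the counts of factors that rose, is therefore not independent of the filter. Klf2 reached 10.7 to 39.4 FPKM at 96 h and Klf4 1.10 to 2.17, and neither overlapped its libraries at 36 h. Id2, Klf2 and Klf4 were thus 3 of 10 with 96 h above 36 h without overlap, where 3.26% of genes were. They kept this direction with each library centred on its median and after quantile normalization.

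Gfi1 fell by 3.42 ± 0.39 and Gata2 by 2.90 ± 0.37 on the log2 scale (limma adjusted p = 2.14e-17 and 1.65e-14). Gfi1 was between 111.9 and 185.8 FPKM at 36 h and between 4.84 and 24.8 at 96 h. Gata2 was between 32.3 and 68.4 FPKM at 36 h and between 2.08 and 12.4 at 96 h. They lay 1.65 and 1.13 below the median of all genes, respectively, and both were also called lower with each library centred on its median. The difference was -3.32 or -3.51 for Gfi1 and -2.81 or -2.99 for Gata2 without WT library a or b at 36 h. An antisense gene, A430072P03Rik, overlaps Gfi1, and the library kit does not mark strand, so reads of the pair cannot be told apart.

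Zeb2 fell by 2.06 ± 0.34 and Gfi1b by 0.85 ± 0.26 on the log2 scale (limma adjusted p = 4.26e-09 and 0.00158). Zeb2 was between 13.8 and 24.7 FPKM at 36 h and between 3.55 and 4.52 at 96 h, and the antisense gene Zeb2os overlaps it. Gfi1, Gata2 and Zeb2 lay lower at 96 h without overlap of the libraries, 3 of 10, where 83.7% of genes did. The fall of Zeb2 was close to that of the median gene, 0.30 below it, and with each library centred the difference was -0.23 and not called. Gfi1b was between 1.31 and 4.02 FPKM at 36 h and between 0.691 and 1.34 at 96 h, and its difference lay 0.92 above the median of all genes. Leaving out WT library a or b at 36 h gave -2.05 or -2.08 for Zeb2 and -1.02 or -0.68 for Gfi1b. The direction of Gfi1b turned with each library centred (0.98, called) and after quantile normalization (0.34, not called). At levels near 1 FPKM the pseudocount limits how far a gene can fall. With a pseudocount of 0.1 the difference was -1.32 for Gfi1b and -2.09 for the median of all genes. The part of the pseudocount was not tested.

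Spi1, Irf8 and Gata1 were not called from 36 h to 96 h, with log2 differences of -0.04 ± 0.41, -0.47 ± 0.30 and -0.34 ± 0.24. Without WT library b at 36 h, Irf8 and Gata1 were called lower (-0.69 and -0.74, adjusted p = 0.0482 and 0.00314), as was Gata1 without WT library a at 96 h (-0.61, adjusted p = 0.0183). Without WT library a at 36 h the differences were -0.24 for Irf8 and 0.055 for Gata1, and for Spi1 they were 0.13 or -0.21 without library a or b. Spi1 was between 90.0 and 172.8 FPKM at 96 h. Relative to the median of all genes they lay 1.72, 1.30 and 1.42 higher, and all 3 were called higher after centring each library on its median (1.79, 1.36 and 1.49) and after quantile normalization (2.0, 1.17 and 0.78). The direction of these 3 factors therefore depends on whether a gene is read per cell or against the other genes of its library.

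**Figure D3:**
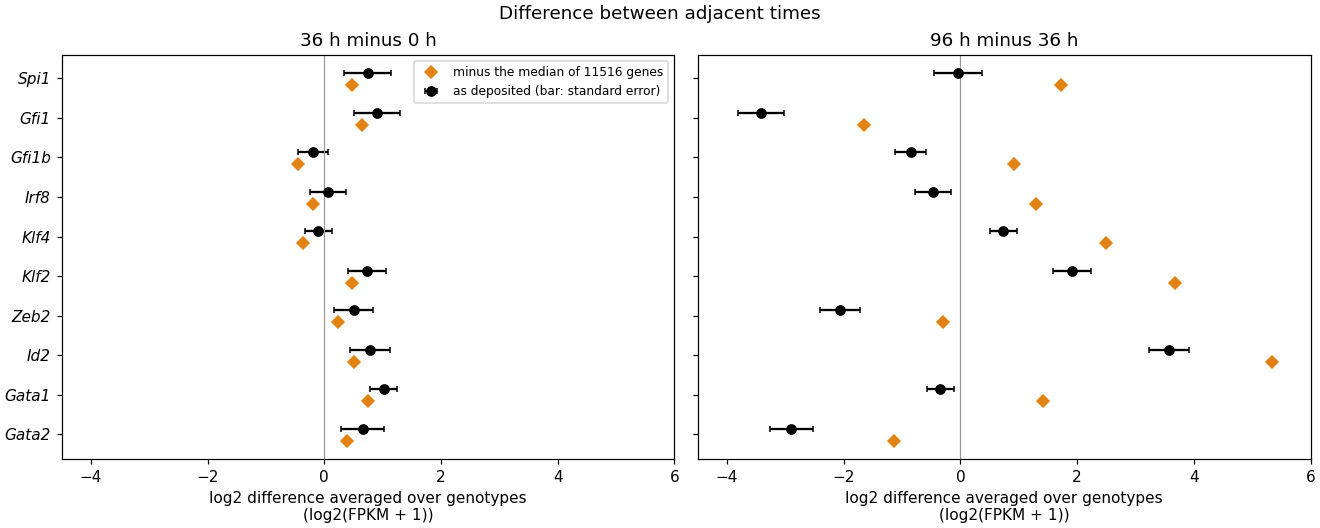
Log2 difference of each factor from 0 h to 36 h and from 36 h to 96 h, averaged over genotypes on the log2(FPKM + 1) scale (horizontal axis), as black points with limma's standard error and, as orange diamonds, minus the median of the 11516 genes tested. From 36 h to 96 h the diamonds lie 1.77 to the right of the points, and Spi1, Irf8, Gata1 and Gfi1b change sign between the readings.

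The rank of a factor within its own library does not depend on the scale between libraries. The percentile of Spi1 among the tested genes was 83.1 to 92.2 at 0 h and 36 h and 96.9 to 97.8 at 96 h. That of Id2 was 8.3 to 29.1 at 0 h and 36 h and 93.9 to 96.2 at 96 h. Klf2 went from 11.2 to 28.4 before 96 h to 73.6 to 88.9 at 96 h, the second factor to pass from the lower to the upper ranks. Gfi1 had a percentile of 81.1 to 91.8 before 96 h and of 61.9 to 80.0 at 96 h. It thus stayed among the upper ranks of its library. The percentile of Zeb2 was 34.7 to 56.0 over all 12 libraries.

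**Figure D4:**
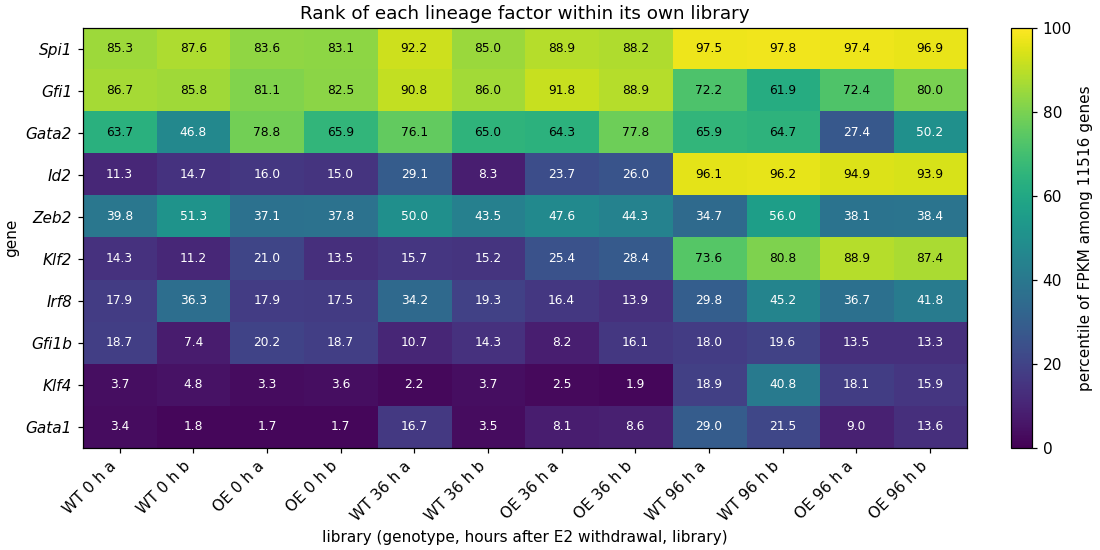
Percentile of each factor's FPKM among the 11516 genes tested within its library (colour and printed value), with factors in rows by mean percentile and the 12 libraries in columns by time and genotype. Id2 and Klf2 change from low to high ranks at 96 h in all 4 libraries, and Spi1 is at 96.9 or above in those 4.

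Opposing factors were set against each other within a library, as the log2 of the ratio of their FPKM, which needs no scale between libraries and no pseudocount. The 7 tests made, those in which both factors had at least 1 FPKM in every library compared, set the 4 libraries of a time against the 4 of the next with a two-sided exact permutation test, whose smallest p with 4 against 4 is 0.0286. The mean log2 ratio of Zeb2 to Id2 was 1.96 at 36 h and -4.22 at 96 h, a change of -6.18. The ratio of Spi1 to Gata2 moved from 1.46 to 4.57, a change of 3.10, and that of Irf8 to Gfi1 from -4.91 to -1.91, a change of 3.00. In these 3 ratios the libraries at 36 h and 96 h did not overlap, and each had p = 0.0286 by the exact permutation test. After Benjamini-Hochberg adjustment over the 7 tests each was at 0.0667, which misses 0.05. With these 3 at the smallest p and the other tests above it, the adjusted p cannot be lower, so full separation could not pass.

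From 0 h to 36 h no ratio came near the threshold. The changes were -0.83 for Irf8 to Gfi1 (exact p = 0.229), 0.07 for Spi1 to Gata2 (exact p = 0.886), -0.44 for Zeb2 to Id2 (exact p = 0.514) and 1.18 for Gfi1 to Gfi1b (exact p = 0.143). For the genotypes at a single time, 2 libraries against 2 allow only 3 splits, so an exact test cannot reach 0.05 and the ratios are given as values. With so few splits a lack of overlap comes easily. Its share over other pairs of genes was not counted, for these ratios or those below. The log2 ratio of Irf8 to Gfi1 at 36 h was -3.85 and -4.47 in WT and -5.66 and -5.64 in HMGN1-OE, without overlap. At 96 h it was -2.48 and -0.91 in WT and -2.0 and -2.24 in HMGN1-OE, which overlapped. At 0 h it was -4.68 and -3.04 in WT and -4.24 and -4.34 in HMGN1-OE, also overlapping. The log2 ratio of Zeb2 to Id2 at 0 h was 2.73 and 2.92 in WT and 1.91 and 2.05 in HMGN1-OE, without overlap, and that of Spi1 to Gata2 was 1.44 and 2.60 in WT and 0.39 and 1.12 in HMGN1-OE, also without overlap. At 96 h the log2 ratio of Spi1 to Gata2 was 3.80 and 4.07 in WT and 6.0 and 4.39 in HMGN1-OE, so HMGN1-OE lay above WT there. The genotypes overlapped at 36 h for both ratios, with Spi1 to Gata2 at 1.66 and 1.34 in WT and 1.87 and 0.98 in HMGN1-OE, and Zeb2 to Id2 at 1.30 and 3.62 in WT and 1.66 and 1.26 in HMGN1-OE. At 96 h Zeb2 to Id2 overlapped too, at -4.88 and -3.68 in WT and -4.23 and -4.10 in HMGN1-OE. The log2 ratio of Gfi1 to Gfi1b at 0 h was 4.58 and 6.31 in WT and 3.97 and 4.21 in HMGN1-OE, which lay lower without overlap. At 96 h it was 3.58 and 2.81 in WT and 4.19 and 4.74 in HMGN1-OE, higher without overlap. At 36 h it overlapped, at 6.42 and 5.16 in WT and 6.90 and 5.32 in HMGN1-OE.

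**Figure D5:**
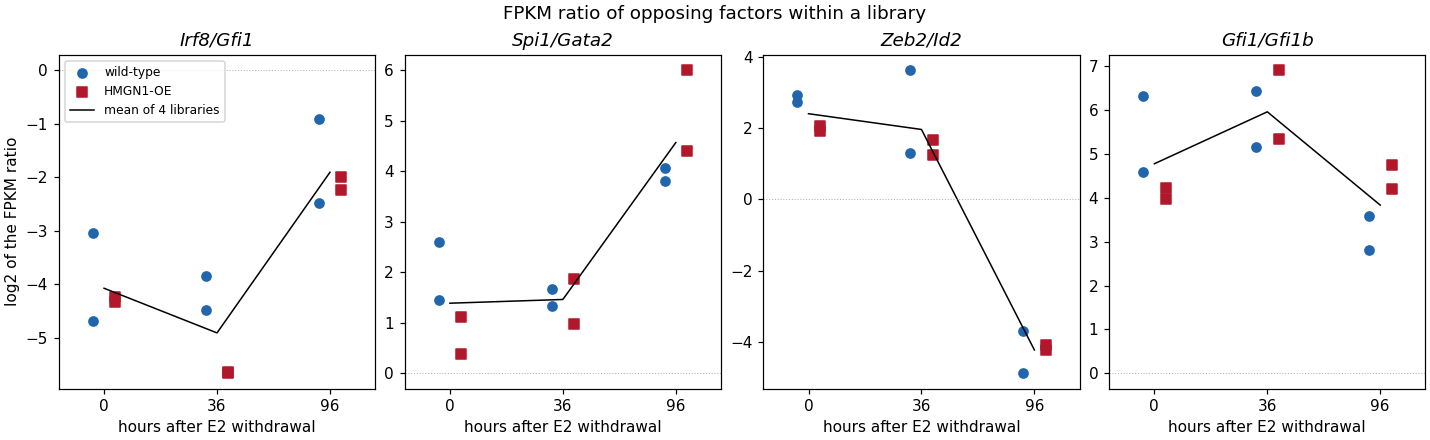
Log2 of the FPKM ratio of 4 pairs of factors within a library (vertical axis) by hours after E2 withdrawal, with 1 point per library, WT in blue circles, HMGN1-OE in red squares and a line through the mean of 4 libraries. The ratio of Zeb2 to Id2 drops from 1.96 at 36 h to -4.22 at 96 h, and the ratios of Irf8 to Gfi1 and Spi1 to Gata2 rise by 3.00 and 3.10.

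Klf4 and Gata1 were under 1 FPKM in most libraries, so the ratios that hold them were not tested. The log2 ratio of Gata2 to Gata1 was 5.84 and 6.14 in WT and 8.18 and 6.85 in HMGN1-OE at 0 h, and at 96 h it was 2.18 and 2.75 in WT and 2.34 and 2.94 in HMGN1-OE. The genotypes did not overlap at 0 h and overlapped at 36 h and 96 h. The log2 ratio of Klf4 to Klf2 at 96 h was -3.56 and -2.30 in WT and -4.90 and -5.05 in HMGN1-OE, without overlap. At 36 h it was -3.20 and -2.48 in WT and -3.80 and -4.53 in HMGN1-OE, again without overlap, and at 0 h the genotypes overlapped. The log2 ratio of Spi1 to Gata1 was between 5.69 and 8.74 over the 12 libraries, and that of Klf4 to Gfi1 was between -8.81 and -6.90 at 0 h and 36 h and between -4.39 and -1.16 at 96 h.

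Proteins that work with these factors were followed as a list of 16 partners: Cebpa, Runx1, Jun and Irf4 with Spi1, the corepressors Kdm1a, Rcor1, Hdac1 and Hdac2 with Gfi1 and Gfi1b, the Gata cofactors Zfpm1, Lmo2, Tal1, Ldb1 and Lyl1, and the E proteins Tcf3, Tcf4 and Tcf12 that Id2 binds. None of the 16 was called between genotypes at any time, on average or in an interaction (limma). From 36 h to 96 h, 14 of the 16 were called lower and 2 higher, where 86.1% of all genes were called lower and 4.15% higher, with a median of -2.51 against -1.77 for all genes. Jun and Irf4, both partners of Spi1, were those that rose, by 1.07 and 0.77 on the log2 scale. Kdm1a, the demethylase recruited by Gfi1, fell by 3.06, and Lmo2, Hdac1 and Cebpa, the most abundant of the list, fell by 3.26, fell by 2.47 and fell by 3.05, respectively. The 3 E proteins fell by 2.31 to 3.04, while Id2 rose.

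Of 16 further lineage factors, 12 were tested, none was called between genotypes, and from 36 h to 96 h 6 were called lower and 1 higher, beside the same 86.1% and 4.15% of all genes, with a median of -0.53 against -1.77 for all genes. Myb, a factor of immature progenitors and the most abundant of the list, fell by 4.51 on the log2 scale, and Nfe2, the second, fell by 1.36, while Id1, the third, had a log2 difference of -0.17 and was not called. Egr2, a factor of macrophages, rose by 0.85. Cebpe, which drives granule formation, was the 1 that rose from 0 h to 36 h, by 1.44 (limma adjusted p = 0.0138). Klf1, known for erythroid cells, was between 0.12 and 0.75 FPKM in all libraries.

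Markers of the lineages that the factors direct gave the following counts between genotypes (limma). Of all genes tested, 1.36% were called at 0 h, 1.26% at 36 h, 0.669% at 96 h and 1.95% on average. For the change of the genotype difference, 0.504% were called from 0 h to 36 h and 0.547% from 36 h to 96 h. The calls at 36 h rest on the WT pair that was least alike, and no values with a library left out are given for the markers. Of 11 neutrophil markers tested, 2 were lower in HMGN1-OE at 0 h, Elane and Mpo, and 4 were lower at 36 h, Ngp, Camp, Mmp8 and S100a9. At 96 h Elane, Mpo and Ctsg were higher in HMGN1-OE and Mmp9 lower, and on average Mmp8 was lower (log2 difference -1.76). S100a9 was also called at 96 h, on average and in the change from 36 h to 96 h, but it is listed at 0.05 FPKM in WT library a at 96 h against 26546 in library b, where S100a8, its binding partner, is at 69948 in library a, so those calls were not used. Of 8 mast cell or basophil markers, 1 was called, Prss34, higher in HMGN1-OE at 0 h and on average. Of 8 monocyte markers, F13a1 was called higher on average, and of 2 erythroid markers, Hba-a1 higher at 0 h. Prg2 was lower at 36 h too. From 0 h to 36 h the genotype difference itself fell for both erythroid markers tested, with Hba-a1 at -1.74, and for the eosinophil genes Prg2 (-3.50) and Epx (-2.35), and from 36 h to 96 h it rose for Mpo (3.36) and fell for Mmp9 (-2.07), all called. None of the 3 dendritic cell, 5 megakaryocyte and 2 lymphocyte markers tested was called between genotypes.

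The summed FPKM of the 10 neutrophil markers other than S100a9 was 5596 to 22865 before 96 h and 38881 to 99898 at 96 h. That of the 10 monocyte markers was 98.9 to 351 before 96 h and 68.1 to 107 at 96 h, and Cx3cr1, a receptor that marks monocytes, was between 0.13 and 0.33 FPKM throughout. The monocyte markers did not move together from 36 h to 96 h. Of the 8 tested, Csf1r, the receptor for the growth factor M-CSF, rose by 2.38 and Fcgr1, an Fc receptor, by 1.33 on the log2 scale (limma adjusted p = 5.64e-18 and 1.34e-06), while F13a1, Adgre1 and Ly86 were called lower, and the median of the 8 was 0.061 against -1.77 for all genes. The eosinophil list summed to 205 and 504 FPKM in HMGN1-OE and to 2133 and 987 in WT at 96 h. The part of these cell types in the levels of the 10 factors was not tested.

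The factors were also compared by their courses over the 12 libraries, on log2(FPKM + 1) minus the library's median, as a description without a test, since libraries of a group and time share their state. The closest pair of factors was Spi1 and Id2 (r = 0.98), followed by Klf2 and Id2 (0.96), and the most opposed pair was Gfi1 and Klf4 (-0.89). The 3 tested genes most like Spi1 were Sp140, Prdx5 and Ctns (r from 0.996 to 0.997), and those most like Id2 were Sqrdl, Mcf2l and Cyba (0.994 to 0.996). For Gfi1 they were Tma16, Mpi and Mrpl19 (0.981 to 0.985), and for Klf2 they included Nrg4 (0.985) and Agfg2 (0.984). For Klf4 they were Syt8, Slc37a2 and Fnip2 (0.993 to 0.994), and for Gata1 Adora3, Tmem51 and C3ar1 (0.974 to 0.985). For Irf8 they were Cst3, 1810011H11Rik and Renbp (0.938 to 0.954), and for Gfi1b Fzd5, Chrnb1 and Dusp4 (0.946 to 0.952). Gata2 was most like Slc7a8, Hgf and F2r (0.898 to 0.909), and Zeb2 like Ccdc149, Bbs5 and Vamp4 (0.890 to 0.914), so these 2 had the least close neighbours.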

How the data were processed

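RNA-seq was analysed for WT and HMGN1-OE ER-HoxB8 progenitors at 0, 36 and 96 h after E2 withdrawal, 12 libraries in 6 groups of 2. The authors extracted RNA from a fixed number of cells, added ERCC spike-in RNAs, prepared polyA libraries with the TruSeq v2 kit, aligned with Bowtie according to the methods of the study, and normalized gene values by loess on the ERCC RNAs. The submitters' processing notes name HISAT, Cufflinks 2.0.0 and mm9 instead, so which aligner made the table is not settled. The deposited values are FPKM by the authors, 1 per gene and library, for 23309 genes and 92 ERCC RNAs. The depth is unknown, since FPKM carry no read counts, and no counting error is given. This kit does not mark strand.

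Groups follow the genotype and time in the column names. Digits in the column names do not match the replicate numbers in the titles, so libraries are called a and b, and the digits entered only as an added alternative. No column was left unused.

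The 11516 genes that reached 1 FPKM in 2 or more libraries entered a limma 3.58.1 fit (R 4.3.3) on log2(FPKM + 1), with a mean for each group and eBayes with trend. Tests were two-sided, p-values were adjusted by Benjamini-Hochberg over all genes, and genes under an adjusted p of 0.05 were called. The prior degrees of freedom were infinite, so the spread came from the trend and not from a gene's own libraries. The fit was tested on simulated data. Ratios of FPKM were tested with exact permutation tests (scipy 1.17.1, Python 3.11.15). Sequences are from RefSeq (GRCm38.p6), and gene positions and overlaps from GENCODE vM21 (GRCm38), which is not the build of the files.

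The factors and lists were chosen with earlier results of these data known. Every factor is named, and of the lists of partners, further lineage factors and cell type markers those called between genotypes and the 3 most abundant (for the markers, these enter only through the sum of the list). The other partners, Flt3, Ccr2, S100a8, Egr2, Cebpe, Cx3cr1, Csf1r, Fcgr1, Adgre1, Ly86, Klf1 and the erythroid genes lie outside this rule and were named after their values were seen. Some genes that the rule or the lists hold are not reported here. Alternatives were a pseudocount of 0.1, other filters, centring on the median, quantile normalization, limma without the trend, only the groups compared and leaving out each library in turn.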

Additional observations from a re-analysis of the deposited data

Results flagged for a closer look

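Irf8 and Gata2 were singled out because at 2 adjacent times all HMGN1-OE libraries lay apart from all WT libraries, in opposite directions. The share of all genes that meet this rule was not counted. By single times, HMGN1-OE lay lower without overlap for 84.4% of genes at 36 h, and higher for 3.26% at 0 h and 10.2% at 96 h. The changes given below use the same values as the rule. Irf8 was lower in HMGN1-OE at 36 h and higher at 96 h, and the change of the genotype difference was 1.97 on the log2 scale (limma adjusted p = 0.150), of which 0.92 was the change of the median gene. Gata2 was higher in HMGN1-OE at 0 h and lower at 36 h, and the change of the difference was -1.35 (limma adjusted p = 0.873), where the median gene changed by -0.41. With 1 library left out the change of Gata2 ranged from -2.03 (without HMGN1-OE library b at 0 h) to -0.68 (without HMGN1-OE library a at 0 h), and was -1.17 or -1.53 without WT library a or b at 36 h. That of the median gene ranged from -0.84 to 0.018, without WT library b or a at 0 h. Neither change passed the adjusted threshold. For Gata2 the nearest libraries of the genotypes were 25.9 against 23.3 FPKM at 0 h. At 36 h both rounded to 53.1 FPKM, and the difference of -0.53 was close to the median of all genes (-0.54), where 84.4% of the genes lay lower without overlap.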

How the results depend on the processing

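A replicate block on the titles' numbers was not run, because the column names end in 0 or 1 and the titles number 1 and 2. A replicate block on the last digit of the column name, added after seeing the data, moved the factors called at 36 h from 1 to 0 (all genes from 145 to 116) and changed no other count of factors. Deviations of libraries with the same digit correlated across genes from -0.37 to 0.18 over 15 pairs of groups, over 0.1 in 3, so the digits were not taken to pair libraries. The count of 1 factor called at 36 h became 0 with a pseudocount of 0.1, no filter, a mean of at least 5 FPKM, centring, quantile normalization, no trend and only the groups compared, and was 0 to 1 with a library left out. The count of 1 called from 0 h to 36 h became 0 with no filter, a mean of at least 5 FPKM (Gata1 is then not tested), centring, quantile normalization and no trend, and was 0 to 1 with a library left out. The average over the 3 times went from 0 to 1 called (Klf2) with centring. With a library left out, 0 to 1 were called at 0 h, on average and in the change from 36 h to 96 h, and the 1 called at 0 h, without WT library a, was Irf8. The 7 factors called from 36 h to 96 h ranged from 5 to 9 over the other settings and from 7 to 9 with a library left out. The cause of these changes was not tested.

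From 36 h to 96 h the direction reversed with centring and quantile normalization, respectively, for Spi1 (1.79 and 2.0), Irf8 (1.36 and 1.17), Gata1 (1.49 and 0.78) and Gfi1b (0.98 and 0.34). With a library left out, Spi1 ranged from -0.28 to 0.19 and Gata1 from -0.74 to 0.055. The log2 ratio of Spi1 to Gata2 from 0 h to 36 h ranged from -0.26 to 0.48 in the same way, and the other 6 ratio changes kept their direction in every setting. None passed the threshold in any setting. With a library left out the exact test cannot reach 0.05, so the miss there was fixed by the design and shows nothing. With FPKM alone the depth is unknown, and factors near 1 FPKM (Klf4, Gata1 and Gfi1b) are limited by the pseudocount.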
